A study of Mus musculus with 620 samples.

Results

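The genes described here are 7 markers and effectors of cellular senescence and cell cycle arrest: Cdkn2a, Cdkn2b, Cdkn1a, Cdkn2c, Lmnb1, Gdf15 and Trp53. They were chosen by gene symbol, and 1 entry for each of the 7 symbols was found in each of the study's 3 count tables, among 24850 genes in the LT table and 40840 genes in the ST and YA tables. Their levels were followed in 620 mouse RNA-seq libraries, 1 library per animal and tissue, from 72 mice.

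Senescent cells have left the cell cycle for good, and they are held out of it by inhibitors of the cyclin-dependent kinases. Cdkn2a encodes p16Ink4a, which blocks CDK4 and CDK6, and from a second promoter and reading frame p19Arf, which holds back the p53 antagonist Mdm2. Cdkn2b and Cdkn2c encode the related INK4 inhibitors p15 and p18, and Cdkn1a encodes p21, the best known transcriptional target of p53, which Trp53 encodes. Lmnb1 encodes lamin B1 of the nuclear envelope, whose loss is used as a sign of senescence. Gdf15 encodes a secreted stress cytokine that acts on the hindbrain receptor Gfral and is induced by p53 and by the integrated stress response.

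The study asked how age, the GLP-1 receptor agonist exenatide, the mTOR inhibitor rapamycin and a knockdown of the GLP-1 receptor in the hypothalamus alter RNA levels across the body. In the LT cohort, 12 tissues were taken from 25 mice, namely 8 young and 9 aged controls and 8 aged exenatide animals, which gave 284 libraries. Some tissues had fewer animals: 5 in each group for white blood cells, 6 young mice for colon and for skeletal muscle, and 8 aged controls for lung and for frontal cortex. In the ST cohort, 7 tissues gave 208 libraries from 31 mice in 6 groups: young controls and 5 groups of aged mice, namely controls, exenatide, rapamycin, controls with the knockdown, and exenatide with the knockdown. There were 5 libraries per tissue in a group, except the white blood cells of the exenatide and rapamycin groups with 4 each. In the YA cohort, 8 tissues came from 8 controls and 8 mice given exenatide, in 128 libraries. The labels do not spell out LT, ST or YA, and the sources used here give no strain, sex, age in weeks, dose, length of treatment or agent of the knockdown. The knockdown was targeted to the hypothalamus, which is not among the 7 ST tissues analysed here, so its strength could not be checked. All aged ST contrasts against controls used the same 5 aged control animals, and both LT contrasts used the same 9.

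The promoter sequences of 3 of the inhibitor genes are shown because 1 entry named Cdkn2a pools transcripts from 2 starts, because Cdkn2a and Cdkn2b are neighbours on chromosome 4 that were counted separately, and because Cdkn1a is a p53 target. Each window holds the 250 bases before an annotated start, written 5′ to 3′ on the gene's strand, from RefSeq on build GRCm38.p6, which is not the GRCm39 build named for the count tables. Capitals mark matches on either strand to a GC box (GGGCGG), a cAMP response element (TGACGTCA) or a p53 decamer, which is 1 of the pair of decamers that form a p53 response element.
Cdkn2a, start of the p19Arf transcript, chr4:89294620-89294869, minus strand: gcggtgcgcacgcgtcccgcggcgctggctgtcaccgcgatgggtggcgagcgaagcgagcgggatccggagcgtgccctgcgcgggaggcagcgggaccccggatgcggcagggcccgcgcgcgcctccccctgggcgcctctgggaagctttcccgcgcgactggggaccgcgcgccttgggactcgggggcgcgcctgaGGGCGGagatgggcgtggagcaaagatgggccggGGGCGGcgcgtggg
Cdkn2a, start of the p16Ink4a transcript, chr4:89282193-89282442, minus strand: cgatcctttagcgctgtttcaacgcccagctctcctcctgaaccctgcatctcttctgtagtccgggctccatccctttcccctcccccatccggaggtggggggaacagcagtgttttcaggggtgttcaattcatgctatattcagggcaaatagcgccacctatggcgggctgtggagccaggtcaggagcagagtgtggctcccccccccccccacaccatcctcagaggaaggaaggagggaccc
Cdkn2b, chr4:89311033-89311282, minus strand: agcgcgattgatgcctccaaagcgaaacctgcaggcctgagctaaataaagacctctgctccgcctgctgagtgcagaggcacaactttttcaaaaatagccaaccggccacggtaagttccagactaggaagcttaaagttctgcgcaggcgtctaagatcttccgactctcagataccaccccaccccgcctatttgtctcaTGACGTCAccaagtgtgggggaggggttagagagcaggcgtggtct
Cdkn1a, upstream start, chr17:29090729-29090978, plus strand: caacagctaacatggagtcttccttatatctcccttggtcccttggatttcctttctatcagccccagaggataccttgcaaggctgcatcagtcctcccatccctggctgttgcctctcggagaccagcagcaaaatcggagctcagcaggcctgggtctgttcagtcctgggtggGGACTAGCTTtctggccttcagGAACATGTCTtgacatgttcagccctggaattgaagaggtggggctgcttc
The p19Arf window holds 2 GC boxes and the p16Ink4a window holds no match to these motifs. A GC box was present in 32.7% of 32851 promoter windows of the same length, the cAMP response element of the Cdkn2b window in 1.55%, and a p53 decamer, found in windows of Cdkn1a and Trp53, in 7.13%. The matches are letters in a window and were not tested for binding. The counts are per gene, so the p16Ink4a and p19Arf transcripts cannot be told apart in them. The library kit does not mark strand, so Cdkn2b counts could include reads of Gm12610, which overlaps it.

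Libraries held between 15190156 and 33786473 counts in LT, between 14643153 and 56204841 in ST, and between 14980061 and 34148943 in YA. Levels are given as CPM, the usual scaling of each count to the total of its library. Defining markers of each labelled tissue were highest in that tissue, except for some markers of heart, hippocampus and frontal cortex, among them Myl7, Prox1, Wfs1 and Neurod6. Haemoglobin transcripts took 9.77% to 33.7% of the counts in the white blood cells of ST aged controls, 16.7% to 58.7% in those of ST young controls and at most 12.6% in LT.

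Cdkn2a, which is kept silent in most young cells, was scarce in these tissues. It was at 0 counts in 38 of 284 LT libraries, 29 of 208 ST libraries and 12 of 128 YA libraries, and a count of 0 allows a level of up to 3 counts in that library. Gdf15 was at 0 in 28 LT, 32 ST and 22 YA libraries, and the other members were never at 0. In the LT young controls, Cdkn2a was highest in spleen (median 0.655 CPM), then adipose tissue (0.418) and lung (0.413), and its medians were 0 in kidney and hypothalamus. No neighbouring pair of tissues in that order was separated beyond the spread of animals.

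The other members each had 1 or more tissues that stood apart. In young LT mice Cdkn2b was highest in colon (29.6 to 78.9 CPM) and lung (19.9 to 30.8), whose ranges overlapped. Adipose tissue followed at 4.80 to 9.95 CPM without overlap on either side, and the median was at most 1.56 CPM in the other 9 tissues. Cdkn1a was highest in colon (177 to 261 CPM) and next in lung (26.1 to 55.6), each apart from the tissue that followed, and lowest in liver (median 1.15). Cdkn2c stood highest in adipose tissue (58.9 to 329 CPM), where no animal overlapped the next tissue, lung (20.4 to 30.4), and it was lowest in hypothalamus (median 0.852).

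Lmnb1, which proliferating cells express at high levels, was highest in spleen, white blood cells and colon, with medians of 65.5, 59.5 and 55.5 CPM and overlapping ranges. Lung followed without overlap at a median of 20.7 CPM, and heart was lowest at 6.16. Trp53 was highest in spleen (116 to 145 CPM) and white blood cells (97.9 to 145), apart from colon (38.2 to 62.6), and lowest in skeletal muscle (median 13.9). Gdf15 was highest in kidney (5.07 to 11.7 CPM), overlapping liver (1.87 to 5.63). Its median was at most 0.0933 CPM in the 3 brain tissues, skeletal muscle and white blood cells.

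**Figure D1:**
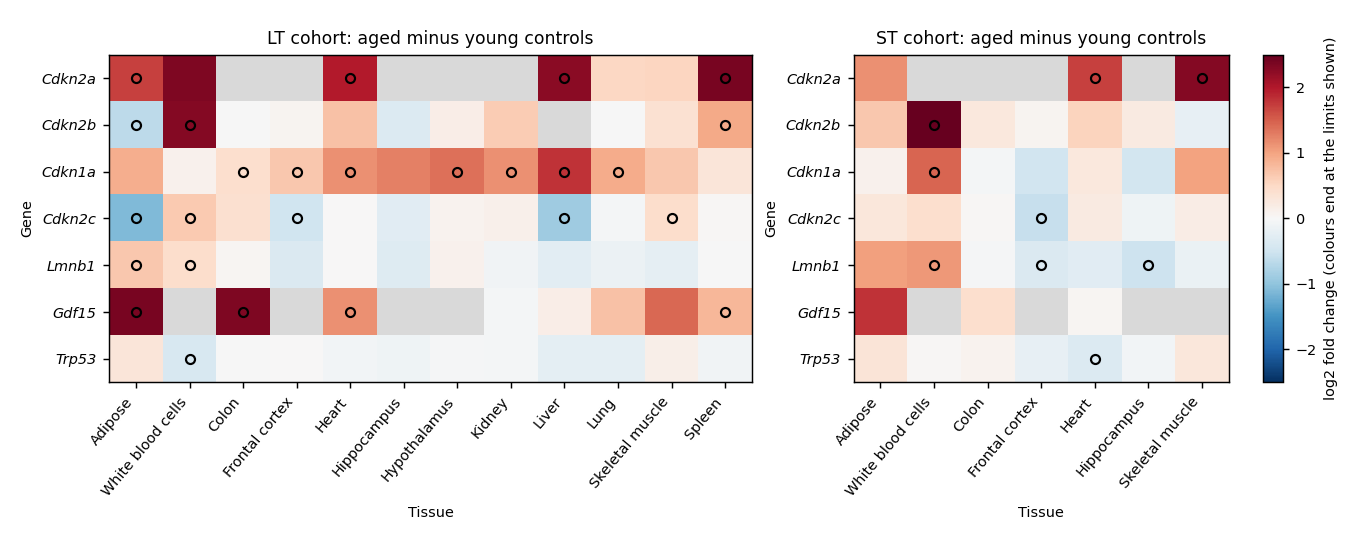
Log2 fold change of aged over young controls for the 7 genes (vertical axis) in each tissue (horizontal axis) of the LT cohort (left) and the ST cohort (right), as colour that ends at the limits of the scale bar. Open circles mark adjusted p under 0.05 and grey squares mark gene and tissue pairs that the low count filter left out; Cdkn1a is above 0 in all 12 LT tissues.

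With age, the inhibitor genes Cdkn2a and Cdkn1a rose in several LT tissues, Gdf15 rose in 4, Lmnb1 rose in 2, Trp53 fell in 1, and Cdkn2b and Cdkn2c rose in some tissues and fell in others. Differences were tested per tissue with edgeR's quasi-likelihood test, and p-values were adjusted by Benjamini and Hochberg over all genes tested in that tissue and called at 0.05. Of 74 gene and tissue pairs that passed the low count filter, 21 rose and 5 fell between LT young and aged controls, in 11 tissues, against 13.6% of all gene and tissue pairs called in either direction (7.01% higher and 6.56% lower). Groups did not overlap in 5 of the 26 called pairs, as in 18.0% of all called pairs. The filter can keep a scarce gene because it is high in 1 group, so these counts describe the pairs that passed and not all members. The libraries are whole tissues, so more RNA per cell and more cells of a type that carries the RNA cannot be told apart. The p-values set each difference between groups against the spread between animals.

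Cdkn2a rose with age in spleen, adipose tissue, heart and liver of the LT cohort, and its fitted difference was above 0 in all 7 tissues tested. The filter left the gene out in 5 tissues and can keep it through 1 high group, so the 7 signs describe only the tissues that passed. In spleen it ranged from 0.122 to 1.22 CPM in the 8 young controls (median 0.655) and from 2.55 to 5.40 in the 9 aged controls (median 3.31). Every aged animal was higher than every young one. The log2 fold change was 2.38 ± 0.30 (SE, edgeR adjusted p = 8.7e-06), with 2.77 in sequencing batch 3 alone and 2.21 in the other batch alone. Most LT tissues were sequenced in 2 batches, each with all 3 groups, and the fits carry a batch term; pairs of values by batch are given as batch 3 and then the other batch. Summed plasma cell markers of the spleen also did not overlap, at 2318 to 3220 CPM in young and 4186 to 7588 in aged controls, while 10 macrophage markers were at 3339 to 3983 and 3351 to 4375. Their part in the result was not tested.

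In liver, Cdkn2a ranged from 0.0392 to 0.333 CPM in young controls (median 0.113) and from 0.235 to 1.99 in aged controls (median 0.535). Of the 9 aged animals, 8 were higher than every young one, with a log2 fold change of 2.25 ± 0.45 (edgeR adjusted p = 0.0045). Summed T and NK cell markers of the liver had medians of 5.43 CPM in young and 12.4 in aged controls. In heart, Cdkn2a ranged from 0 to 0.322 CPM in young (median 0.15) and from 0.236 to 1.68 in aged controls (median 0.645). The heart groups overlapped, and the log2 fold change was 1.99 ± 0.43 (edgeR adjusted p = 0.0026), 2.37 in batch 3 alone, where it was not called, with no value for the other batch because the gene did not pass the filter there.

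Adipose Cdkn2a ranged from 0.0395 to 1.41 CPM in young controls (median 0.418) and from 0.981 to 2.75 in aged controls (median 1.74), and 7 of 9 aged animals exceeded all young ones. The log2 fold change was 1.72 ± 0.45 (edgeR adjusted p = 0.0035), 1.61 in batch 3 alone, where it was not called, and 1.79 in the other batch. Aged adipose tissue also carried more immune cell RNA: summed macrophage markers had medians of 1998 CPM in young and 8464 in aged controls, and B cell markers ranged from 5.95 to 169 and from 68.6 to 1680. Their part in the result was not tested, and 50.8% of all genes tested were called in this tissue. The adipose values of the other members with age come from the same libraries. Heart T and NK cell markers had medians of 3.69 and 9.62 CPM in young and aged controls.

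**Figure D2:**
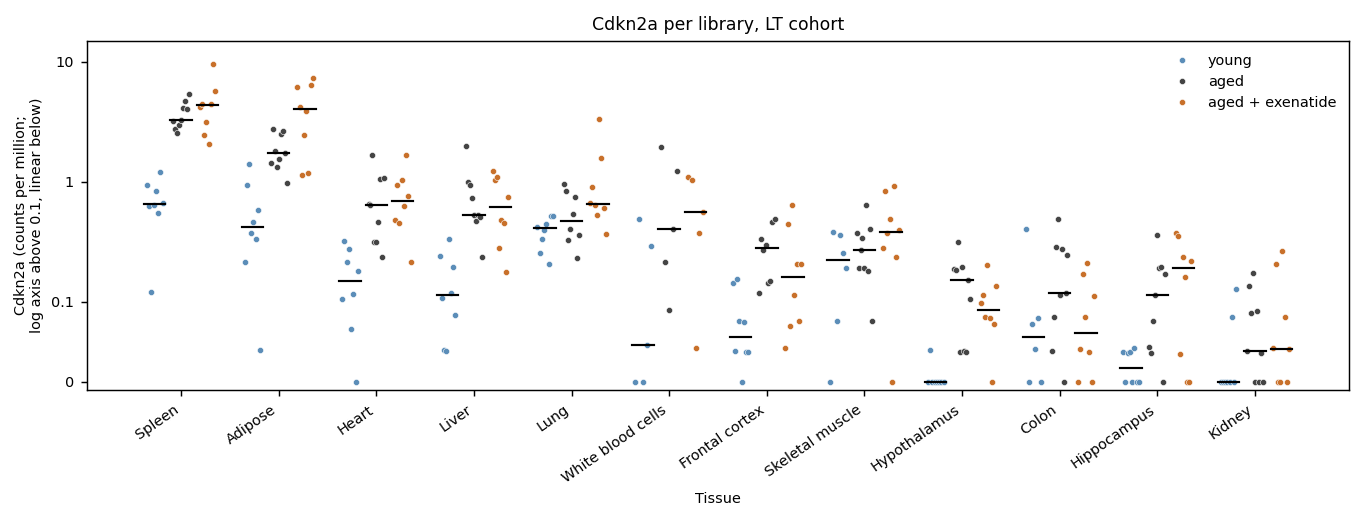
Cdkn2a in CPM (vertical axis, logarithmic above 0.1 and linear below it) per library in the 12 LT tissues (horizontal axis), with 1 point per animal and bars at the group medians. In spleen the 9 aged controls lie between 2.55 and 5.40, all above the 8 young controls.

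In the brain, Cdkn2a was too scarce for the test, and its total counts were higher in aged mice. In LT hypothalamus, 7 of 8 young controls had 0 counts and the eighth had 1, whereas all 9 aged controls had 1 to 9 counts (34 in total) and the 8 exenatide animals had 0 to 5 (21 in total). Frontal cortex held 15 counts over 8 young, 58 over 8 aged and 47 over 8 exenatide animals. Hippocampus held 4 over 8 young, 30 over 9 aged and 37 over 8 exenatide animals. The filter also left Cdkn2a out in the ST hippocampus and frontal cortex, whose counts are not given here. These low counts passed no filter and carry no test.

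The ST cohort gave the same direction for Cdkn2a in heart and skeletal muscle. In ST heart the 5 young controls measured 0.276, 0.5, 0.345, 0.174 and 0.651 CPM and the 5 aged controls 2.37, 0.971, 1.71, 0.897 and 0.651. The groups met at 0.651 CPM, with a log2 fold change of 1.71 ± 0.56 (edgeR adjusted p = 0.0295). In ST skeletal muscle the young controls measured 0.118, 0.0705, 0.241, 0.0851 and 0 CPM and the aged controls 0.923, 0.154, 0.589, 0.504 and 0.26. Only 1 aged animal, at 0.154 CPM, fell within the young range, and the log2 fold change was 2.29 ± 0.71 (edgeR adjusted p = 0.0255). Young levels there were at most 0.241 CPM, and the low count filter can keep so scarce a gene because it is higher in another group. The ST heart also had more macrophage RNA in aged controls (739 to 2211 CPM) than in young ones (490 to 683), without overlap. Its part in the result was not tested.

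Cdkn2b, the p15 gene that TGF-beta induces, rose with age in the white blood cells of both cohorts. In LT the 5 young controls measured 0.275, 0.584, 0.356, 0.321 and 0.582 CPM, the 5 aged controls 1.45, 1.86, 1.44, 2.13 and 1.95, and the 5 exenatide animals 1.82, 0.85, 0.587, 1.05 and 1.09. All aged controls lay above all young controls, and 4 of the 5 exenatide animals lay below every aged control. The age difference was 2.29 ± 0.35 on the log2 scale (edgeR adjusted p = 0.0024), and the exenatide difference, at −0.77 ± 0.32, was not called (edgeR adjusted p = 0.149). Summed B cell markers of these libraries were at 3076 to 5316 CPM in young and 979 to 2782 CPM in aged controls, without overlap. Neutrophil markers were at 655 to 2422 and 1908 to 4324, and a set of microglial genes that other myeloid cells share at 294 to 427 and 494 to 806, without overlap. Their part in the result was not tested.

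In ST white blood cells, Cdkn2b measured 0.195, 0.0915, 0.0679, 0.413 and 0.045 CPM in young and 0.72, 0.984, 2.14, 1.36 and 0.542 CPM in aged controls. The groups did not overlap, the log2 fold change was 2.69 ± 0.57 (edgeR adjusted p = 0.0023), and they also did not overlap in CPM computed without haemoglobin transcripts (0.0648 to 0.509 in young and 0.817 to 2.55 in aged). Macrophage markers in these libraries were at 622 to 2602 CPM in young and 3189 to 5743 CPM in aged controls. Their part in the result was not tested.

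Spleen Cdkn2b also rose in LT, from 0.758 to 1.63 CPM in young (median 1.26) to 1.41 to 2.86 in aged controls (median 2.67). The spleen groups overlapped, with a log2 fold change of 0.95 ± 0.23 (edgeR adjusted p = 0.0108) and values of 1.18 and 0.85 by batch, neither called there. In adipose tissue, where its level is far higher, Cdkn2b fell by 0.65 ± 0.24 (edgeR adjusted p = 0.0298; −0.71 and −0.63 by batch, neither called there), from 4.80 to 9.95 CPM in young (median 8.36) to 1.96 to 7.0 in aged controls (median 5.73). The call was lost when any of 6 of 25 animals was left out. The neighbouring Cdkn2a rose in the same adipose libraries.

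**Figure D3:**
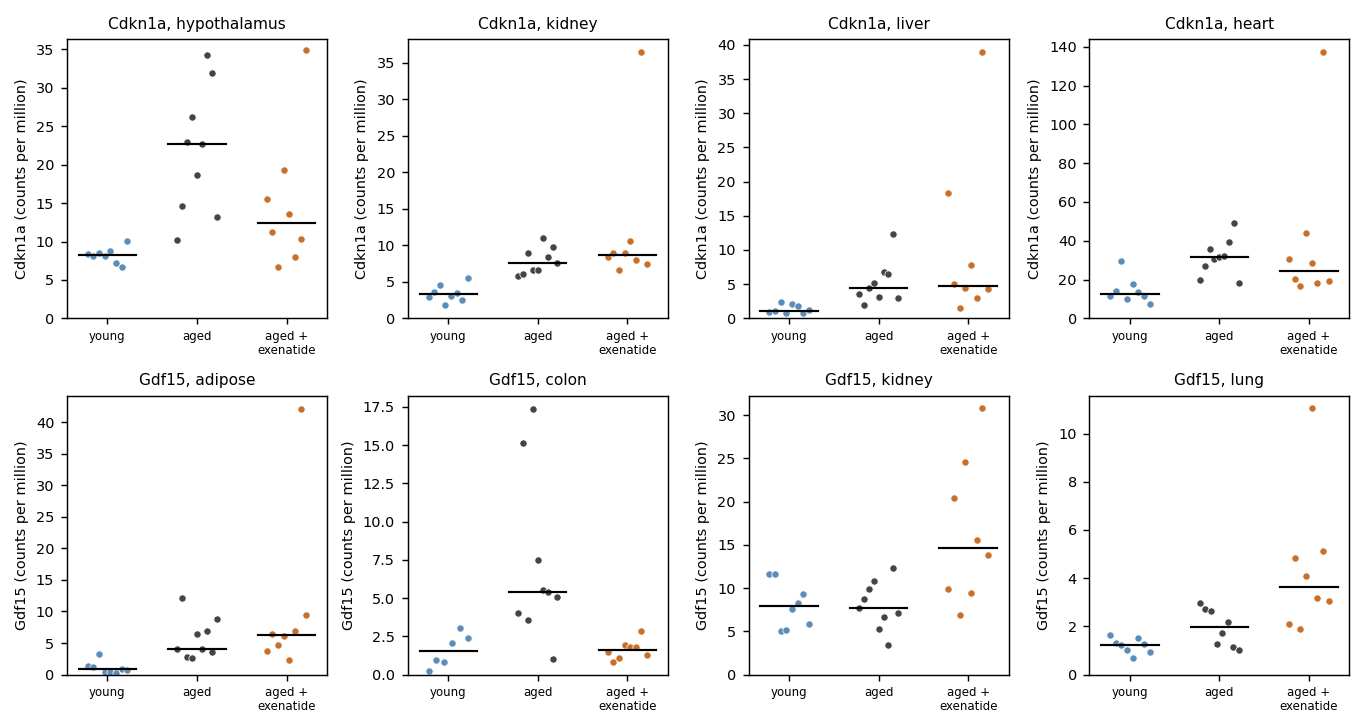
Cdkn1a (top) and Gdf15 (bottom) in CPM (vertical axes) in 4 LT tissues each, with 1 point per animal of the 3 groups (horizontal axes) and bars at the medians. Young and aged controls do not overlap for Cdkn1a in hypothalamus and kidney, and 1 exenatide animal is highest for Cdkn1a in kidney, liver and heart.

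The fitted difference of Cdkn1a with age was above 0 in all 12 LT tissues, with a median log2 fold change of 0.92. The gene passed the test in 7. In white blood cells the fitted difference was 0.11 ± 0.31 (edgeR adjusted p = 0.813), while median CPM without haemoglobin transcripts was lower in aged controls. That median was 6.998 in young (3.36 to 8.43) and 4.34 in aged controls (3.75 to 8.18), with overlap. In hypothalamus Cdkn1a ranged from 6.70 to 10.04 CPM in young controls (median 8.22) and from 10.2 to 34.2 in aged controls (median 22.7). The groups did not overlap, and the log2 fold change was 1.38 ± 0.28 (edgeR adjusted p = 0.0056), 1.33 in batch 3 alone, where it was not called, and 1.45 in the other batch. Microglial markers of the hypothalamus overlapped at 159 to 208 CPM in young and 185 to 259 in aged controls.

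Kidney Cdkn1a did not overlap either, at 1.81 to 5.58 CPM in young (median 3.27) and 5.85 to 11 in aged controls (median 7.62). The log2 fold change was 1.14 ± 0.29 (edgeR adjusted p = 0.0136), with 1.30 and 1.11 by batch, the first not called. Liver, with the lowest young level, had the largest rise of the 7 called, from 0.741 to 2.42 CPM in young (median 1.15) to 2.02 to 12.3 in aged controls (median 4.40), with a log2 fold change of 1.81 ± 0.52 (edgeR adjusted p = 0.0434). Macrophage markers of the kidney had medians of 120 CPM in young and 202 CPM in aged controls, and their part in the result was not tested.

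Of the remaining calls for Cdkn1a, heart rose by 1.14 ± 0.38 (7.35 to 29.4 CPM in young, 18.3 to 48.9 in aged, edgeR adjusted p = 0.0424) and lung by 0.93 ± 0.27 (26.1 to 55.6 and 34.2 to 106 CPM, edgeR adjusted p = 0.04). Frontal cortex rose by 0.68 ± 0.20 (12 to 24.1 and 19.7 to 44.9 CPM, edgeR adjusted p = 0.0418). Groups overlapped in each of these 3 tissues, and the values by batch were 0.75 and 1.41 in heart, 0.60 and 1.09 in lung, and 0.50 and 0.79 in frontal cortex, called only in the other batch. Colon, at 177 to 261 and 216 to 426 CPM, differed by 0.42 ± 0.14 (edgeR adjusted p = 0.050; 0.59 and 0.34 by batch, neither called there), a call that was lost when any of 21 of 23 animals was left out. The calls in liver, heart, lung and frontal cortex were each lost when any 1 of 11 to 13 animals was left out. In adipose tissue (0.92 ± 0.42, edgeR adjusted p = 0.074) and hippocampus (1.27 ± 0.31, edgeR adjusted p = 0.0737) the differences were not called.

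In the ST cohort, the fitted difference of Cdkn1a with age was above 0 in 4 of 7 tissues. The median log2 fold change was 0.11 (−0.48 to 1.46), and the gene was called in white blood cells alone. Young controls measured 3.50, 2.52, 0.815, 3.49 and 3.83 CPM and aged controls 6.77, 13.4, 3.86, 11.9 and 7.15. The groups did not overlap in CPM, with a log2 fold change of 1.46 ± 0.39 (edgeR adjusted p = 0.0089). In CPM computed without haemoglobin transcripts they overlapped, at 1.98 to 5.51 in young and 4.59 to 14.8 in aged controls.

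Cdkn2c, the p18 gene, fell with age in adipose tissue, liver and frontal cortex and rose in white blood cells and skeletal muscle. Adipose levels ranged from 58.9 to 329 CPM in young controls (median 209) and from 65.3 to 151 in aged controls (median 82.1). The groups overlapped through low young animals, and the log2 fold change was −1.10 ± 0.23 (edgeR adjusted p = 0.0005), −0.85 and −1.27 by batch, the first not called. In this tissue 50.8% of all genes tested were called, and the part of the immune cell RNA given above was not tested. Liver Cdkn2c ranged from 5.86 to 8.72 CPM in young (median 7.50) and from 2.92 to 6.55 in aged controls (median 3.92), and 8 of 9 aged animals were lower than every young one. The fall was −0.89 ± 0.16 on the log2 scale (edgeR adjusted p = 0.0018).

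Frontal cortex Cdkn2c fell in both cohorts. In LT it ranged from 2.5 to 4.22 CPM in young and from 1.61 to 3.21 in aged controls, with a log2 fold change of −0.50 ± 0.14 (edgeR adjusted p = 0.0297), −0.24 in batch 3 alone, where it was not called, and −0.68 in the other batch. It was lost when any of 7 of 24 animals was left out. In ST the young controls measured 2.06, 3.41, 2.67, 3.32 and 2.42 CPM and the aged controls 1.68, 1.98, 2.0, 1.61 and 1.98. The ST groups did not overlap, and the log2 fold change was −0.58 ± 0.16 (edgeR adjusted p = 0.0265).

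Cdkn2c rose in 2 LT tissues. White blood cells measured 8.13, 6.61, 7.56, 6.70 and 7.99 CPM in young and 15.9, 8.42, 7.04, 9.61 and 9.36 in aged controls, with overlap and a log2 fold change of 0.64 ± 0.15 (edgeR adjusted p = 0.0087). Skeletal muscle ranged from 9.95 to 19.9 CPM in the 6 young and from 16 to 20.5 in the 9 aged controls, with a log2 fold change of 0.44 ± 0.14 (edgeR adjusted p = 0.0429). The values by batch were 0.44, against a single young library, and 0.42, neither called there, and the call was lost when any of 10 of 23 animals was left out.

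Lmnb1, the lamin B1 gene, fell with age in the ST hippocampus and frontal cortex. Hippocampal levels were 7.23, 7.84, 9.08, 7.38 and 10.4 CPM in young and 6.11, 4.95, 6.64, 4.94 and 6.97 CPM in aged controls. The groups did not overlap, with a log2 fold change of −0.52 ± 0.12 (edgeR adjusted p = 0.0022). Frontal cortex levels were 7.63, 8.70, 7.76, 5.97 and 8.60 CPM in young and 6.29, 6.62, 6.26, 5.21 and 5.6 CPM in aged controls, with overlap through 1 young animal and a log2 fold change of −0.37 ± 0.10 (edgeR adjusted p = 0.029). Microglial markers of the ST hippocampus did not overlap either, at 239 to 252 CPM in young and 310 to 415 in aged controls, nor did astrocyte markers, at 1189 to 1381 and 1447 to 1960. Choroid plexus markers stood at 11564 and 2951 CPM in the young animals coded A47 and A46 in the labels, against 60.0 to 204 in the other young and 47.9 to 383 in aged controls. A47 was also the animal with the highest Lmnb1, and without it the difference was −0.43 and still called (edgeR adjusted p = 0.0114). The part of these cells in the result was not tested. In the LT hippocampus Lmnb1 ranged from 7.74 to 9.30 CPM in young and from 5.68 to 7.91 in aged controls, and its log2 fold change of −0.33 ± 0.11 was not called (edgeR adjusted p = 0.333) in a tissue where 0.403% of all genes were.

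In blood and fat, Lmnb1 was higher with age. ST white blood cells measured 35.1, 51.3, 8.83, 39 and 24.2 CPM in young and 47.5, 155, 42.8, 85.7 and 35 CPM in aged controls. They overlapped, the log2 fold change was 1.09 ± 0.30 (edgeR adjusted p = 0.0107), and the call was lost without the aged animal at 155 CPM, when the value was 0.68. That library also had the highest neutrophil marker sum of the group (11992 CPM, against 1612 CPM in the lowest), and the library at 8.83 CPM the highest haemoglobin share (58.7%). LT white blood cells rose by 0.43 ± 0.15 (55.3 to 60.7 and 52.8 to 79.4 CPM, edgeR adjusted p = 0.0413) and LT adipose tissue by 0.68 ± 0.28 (9.29 to 27.2 and 10.7 to 44.1 CPM, edgeR adjusted p = 0.0457; 0.75 and 0.59 by batch, neither called there), both with overlap and both lost when any 1 of 8 or 14 animals was left out.

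Gdf15 rose with age in LT adipose tissue, colon, heart and spleen. Adipose levels ranged from 0.187 to 3.24 CPM in young controls (median 0.815) and from 2.60 to 12.2 in aged controls (median 4.12). Of the young animals 1 lay within the aged range, and the log2 fold change was 2.37 ± 0.45 (edgeR adjusted p = 0.000255), 2.14 and 2.52 by batch, the first not called. In adipose tissue 50.8% of all genes tested were called, and the part of the immune cell RNA given above was not tested. Colon levels ranged from 0.243 to 3.01 CPM in the 6 young (median 1.53) and from 0.991 to 17.4 in the 9 aged controls (median 5.42). The colon groups overlapped through 1 aged animal at 0.991 CPM, and the log2 fold change was 2.32 ± 0.55 (edgeR adjusted p = 0.0093), 2.90 and 2.15 by batch, neither called there.

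Heart Gdf15 rose by 1.15 ± 0.38 (0.263 to 3.46 CPM in young, 0.996 to 7.14 in aged, edgeR adjusted p = 0.0365) and spleen Gdf15 by 0.84 ± 0.26 (0.567 to 1.89 and 1.56 to 4.51 CPM, edgeR adjusted p = 0.0399). Both overlapped, and the values by batch were 1.19 and 1.09 in heart and 1.45 and 0.50 in spleen, none called there. The calls were lost when any of 8 animals for heart or 9 for spleen was left out. In kidney, where its level is highest, Gdf15 did not differ detectably with age (5.07 to 11.7 and 3.36 to 12.4 CPM, −0.05 ± 0.28, edgeR adjusted p = 0.949). In ST no Gdf15 difference with age was called in the 3 tissues tested.

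Trp53 was called with age in 1 of 12 LT tissues and 1 of 7 ST tissues. It fell with age in LT white blood cells, from 97.9, 102, 106, 123 and 145 CPM in young to 95.2, 79.98, 68, 53.1 and 78.1 CPM in aged controls. The groups did not overlap, and the log2 fold change was −0.39 ± 0.09 (edgeR adjusted p = 0.0073). The B cell markers given above for these libraries were also lower in every aged control, and their part in the result was not tested. Trp53 fell in ST heart as well, from 30.8, 25.9, 26.5, 28.4 and 27.5 CPM to 22.7, 25, 22.7, 18.9 and 22 CPM, without overlap (−0.35 ± 0.12, edgeR adjusted p = 0.0332). Of 41 ST pairs that passed the filter, 5 rose and 4 fell with age over all 7 genes, against 13.6% of all gene and tissue pairs called (6.82% higher and 6.74% lower), and 5 of the 9 did not overlap, as in 45.9% of all called pairs. Of these 9, 5 outside white blood cells were lost on leaving out single animals: heart Cdkn2a without A42, A45, A46, E13 or E29 (1.39 to 1.68), heart Trp53 without A42, A46, E13, E29 or E30 (−0.35 to −0.28), and skeletal muscle Cdkn2a without A44, A47 or E13 (1.94 to 2.14). In frontal cortex the other two were lost, Cdkn2c without A43, A46, E13 or E30 (−0.55 to −0.49) and Lmnb1 without A43, A45, A47, E30 or E32 (−0.37 to −0.32).

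**Figure D4:**
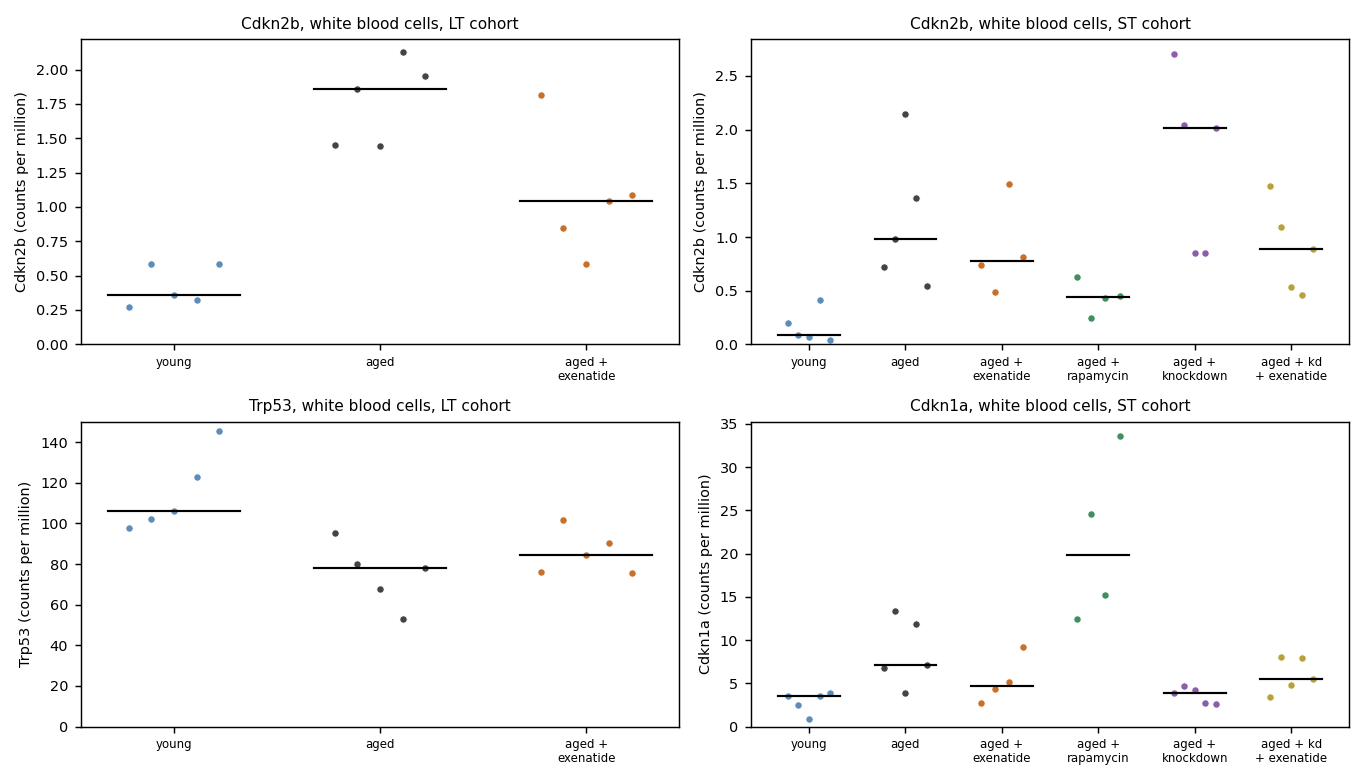
Cdkn2b in LT and ST white blood cells (top), Trp53 in LT white blood cells (bottom left) and Cdkn1a in ST white blood cells (bottom right), in CPM (vertical axes), with 1 point per animal of each group (horizontal axes; kd, knockdown) and bars at the medians. Aged controls lie above all young controls for Cdkn2b and below them for Trp53, and the rapamycin animals reach 33.6 CPM for Cdkn1a.

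Exenatide in aged LT mice lowered Gdf15, Cdkn2b and Cdkn2c in colon, and Gdf15 and Trp53 in kidney and Cdkn2a in adipose tissue were higher than in aged controls. Of 74 pairs tested, 3 rose and 3 fell, against 4.92% of all gene and tissue pairs called (2.63% higher and 2.29% lower). All 6 overlapped, and 6.81% of all called pairs did not. Colon Gdf15 ranged from 0.991 to 17.4 CPM in aged controls (median 5.42) and from 0.787 to 2.86 in the 8 exenatide animals (median 1.61). All exenatide animals but the highest 1 lay at or under 1.94 CPM, and 8 of 9 aged controls were at 3.58 CPM or more. The log2 fold change was −2.27 ± 0.48 (edgeR adjusted p = 0.0062), −1.90 and −2.55 by batch, the first not called. The age difference in colon used the same aged controls, so the 2 values are not independent.

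Colon Cdkn2b ranged from 21.9 to 82.1 CPM in aged controls (median 38.5) and from 18.5 to 34.1 in exenatide animals (median 23.3), with a log2 fold change of −0.86 ± 0.23 (edgeR adjusted p = 0.019). Cdkn2c in colon ranged from 14.7 to 24.1 CPM and from 12.8 to 16.6, with a log2 fold change of −0.43 ± 0.13 (edgeR adjusted p = 0.0293). The batches alone gave −0.73 and −0.95 for Cdkn2b and −0.34 and −0.48 for Cdkn2c, none called there, and the Cdkn2c call was lost when any of 7 of 23 animals was left out. Macrophage markers of the colon had medians of 408 CPM in aged controls and 340 in exenatide animals, and plasma cell markers 2998 and 2351. Genes of the astrocyte list were at 266 to 804 CPM in aged controls and 624 to 1310 in exenatide animals, and the part of these cells in the result was not tested. The library of exenatide animal B30 is titled colon but carries a gastrointestinal tract tissue label, and without it the values were −2.31 for Gdf15, −0.85 for Cdkn2b and −0.43 for Cdkn2c, all still called (edgeR adjusted p = 0.0105, 0.0325 and 0.0463).

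Kidney Gdf15 ranged from 3.36 to 12.4 CPM in aged controls (median 7.71) and from 6.87 to 30.9 in exenatide animals (median 14.7). The groups overlapped, with a log2 fold change of 1.0 ± 0.27 (edgeR adjusted p = 0.0194), 1.41 in batch 3 alone and 0.69 in the other batch, where it was not called. Without exenatide animal B36 the value was 0.78 and the call was lost (edgeR adjusted p = 0.0565). Erythroid markers of the kidney were at 66.3 to 169 CPM in aged controls and 130 to 1129 in exenatide animals, and their part in the result was not tested. Lung Gdf15 measured 1.02 to 2.97 CPM in aged controls and 1.90 to 11.1 in exenatide animals and was not called (1.16 ± 0.31, edgeR adjusted p = 0.0649). Kidney Trp53, at 23.2 to 34 and 26.1 to 39.6 CPM, differed by 0.20 ± 0.07 (edgeR adjusted p = 0.0484; 0.19 and 0.18 by batch, neither called there), a call lost when any of 21 of 25 animals was left out. That call was also lost under all 7 alternatives that did not leave out single animals, DESeq2 among them.

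Adipose Cdkn2a, already higher with age, was higher again with exenatide, from 0.981 to 2.75 CPM in aged controls (median 1.74) to 1.14 to 7.29 in exenatide animals (median 4.04). The groups overlapped at the low end, and the log2 fold change was 1.2 ± 0.42 (edgeR adjusted p = 0.0476), 1.36 and 1.10 by batch, neither called there, and lost when any of 15 of 25 animals was left out. The difference was also not called without the batch term or without the low count filter. Adipose erythroid markers were at 31.9 to 151 CPM in aged controls (median 58.5) and 73.4 to 467 in exenatide animals (median 200.4). Plasma cell markers had medians of 2826 and 1719 CPM, B cell markers 521 and 343, and macrophage markers 8464 and 8529. The part of these cells in the result was not tested. Exenatide gave no called difference in spleen Cdkn2a or hypothalamus Cdkn1a, both higher with age: spleen Cdkn2a reached 2.06 to 9.51 CPM (0.30 ± 0.26, edgeR adjusted p = 0.623) and hypothalamus Cdkn1a 6.63 to 34.9 CPM (−0.55 ± 0.27, edgeR adjusted p = 0.194).

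A single exenatide animal, B36, had the highest Cdkn1a of all LT libraries in 6 of the 11 tissues it gave. Its Cdkn1a was 137 CPM in heart, where the other 7 exenatide animals measured 16.5 to 43.9 and the next highest LT library 48.9. It was 36.4 CPM in kidney (others 6.65 to 10.6), 38.9 in liver (others 1.53 to 18.3) and 72.3 in skeletal muscle (others 10.4 to 28.9). Lung and adipose tissue, at 140 and 165 CPM, were the other 2. Its hypothalamus (10.3 CPM) and spleen (11.6) were within the range of its group. The same animal had the highest Gdf15 of all LT libraries in adipose tissue (42.1 CPM, others in its group 2.30 to 9.50), kidney (30.9), liver (14.8) and skeletal muscle (1.11).

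In the ST cohort, exenatide called none of 41 pairs by edgeR or DESeq2, against 8.0% of all gene and tissue pairs by edgeR, and 5 pairs had an unadjusted p under 0.05, as did 21.6% of all pairs. The pair nearest the threshold was hippocampal Lmnb1, which measured 6.74, 7.76, 8.38, 7.31 and 7.51 CPM in exenatide animals beside 6.11, 4.95, 6.64, 4.94 and 6.97 in aged controls (0.31 ± 0.12, edgeR adjusted p = 0.0541). In mice with the knockdown, hippocampal Lmnb1 was 7.34, 4.58, 5.73, 5.45 and 4.85 CPM without and 6.72, 5.46, 5.91, 6.72 and 8.01 CPM with exenatide (0.21 ± 0.12, edgeR adjusted p = 0.217). Exenatide within the knockdown called 0 of 41 pairs by either tool, against 4.94% of all pairs by edgeR, and 11 had an unadjusted p under 0.05, as did 18.9% of all pairs. The difference between the 2 exenatide effects called 0 of 41 by either tool, against 2.41% of all pairs by edgeR, and 4 had an unadjusted p under 0.05, as did 12.8% of all pairs.

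The knockdown itself, compared in aged controls, was called for 2 of 41 pairs, both lower in white blood cells, against 3.27% of all pairs (1.89% higher and 1.38% lower). Cdkn1a measured 3.84, 4.70, 4.18, 2.67 and 2.59 CPM with the knockdown beside 6.77, 13.4, 3.86, 11.9 and 7.15 without, overlapping through 1 control (−1.25 ± 0.38, edgeR adjusted p = 0.043). Lmnb1 measured 48.2, 47.4, 39.2, 40.4 and 16.6 CPM beside 47.5, 155, 42.8, 85.7 and 35 (−0.97 ± 0.30, edgeR adjusted p = 0.0446). Both calls were lost when any of 14 or 15 of 28 animals was left out, and Lmnb1 was at −0.56 without the aged control at 155 CPM. Of the 5 knockdown libraries, E20 stood apart in its markers, with T and NK cell markers at 4006 CPM against 238 to 385 in the other 4 and macrophage markers at 675 CPM against 2396 to 3639. Without E20 the values were −1.14 for Cdkn1a and −0.91 for Lmnb1 and neither was called (edgeR adjusted p = 0.0799 and 0.0714). Macrophage markers were at 3189 to 5743 CPM without the knockdown, and the part of these cells in the result was not tested.

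In the YA cohort exenatide raised 1 of 44 pairs, Cdkn2b in colon, against 0.631% of all pairs called (0.275% higher and 0.356% lower). It ranged from 31 to 36.7 CPM in the 8 controls (median 32.5) and from 36.1 to 55.6 in the 8 exenatide animals (median 44.6). Of the exenatide animals, 7 were higher than every control, and the log2 fold change was 0.39 ± 0.09 (edgeR adjusted p = 0.0208). In the aged LT colon the same gene fell with the drug, by 0.86, and the difference between the cohorts was not tested. Plasma cell markers of the YA colon had medians of 1748 CPM in controls and 725 in exenatide animals, and their part in the result was not tested.

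**Figure D5:**
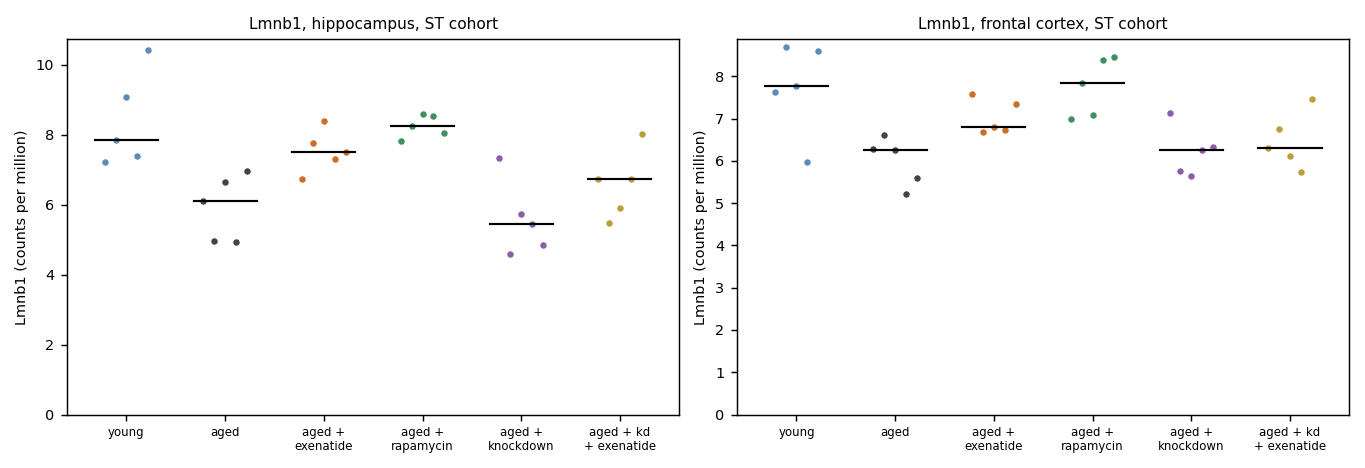
Lmnb1 in CPM (vertical axes, from 0) in the hippocampus (left) and frontal cortex (right) of the 6 ST groups (horizontal axes; kd, knockdown), with 1 point per animal and bars at the medians. All 5 rapamycin animals lie above all 5 aged controls in both tissues.

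Rapamycin in aged ST mice raised Lmnb1 in hippocampus and frontal cortex and Trp53 in frontal cortex, 3 of 41 pairs against 13.2% of all pairs called (6.72% higher and 6.5% lower). None of the 3 overlapped, and 51.5% of all called pairs did not. Hippocampal Lmnb1 was 7.83, 8.24, 8.58, 8.53 and 8.03 CPM with rapamycin beside 6.11, 4.95, 6.64, 4.94 and 6.97 in aged controls. The log2 fold change was 0.46 ± 0.12 (edgeR adjusted p = 0.0053). With rapamycin, 27.6% of all genes tested were called in hippocampus and 18.2% in frontal cortex. Frontal cortex Lmnb1 was 6.98, 7.84, 7.09, 8.38 and 8.47 CPM beside 6.29, 6.62, 6.26, 5.21 and 5.6, a log2 fold change of 0.34 ± 0.10 (edgeR adjusted p = 0.0196), not called without aged control E30 (0.30) or rapamycin animal E6 (0.31). These values share their aged controls with the age difference in the same tissues, which had the opposite sign. Microglial markers of the hippocampus were at 233 to 279 CPM with rapamycin and 310 to 415 in aged controls, without overlap, and their part in the result was not tested.

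Frontal cortex Trp53 was 17.1, 17.5, 17.8, 15.9 and 18.2 CPM with rapamycin beside 12.2, 13.1, 14.7, 12.9 and 15.1 in aged controls (0.32 ± 0.09, edgeR adjusted p = 0.0103). In white blood cells Cdkn1a was 12.4, 24.5, 15.2 and 33.6 CPM in the 4 rapamycin animals, 3 of them above the highest aged control at 13.4, and the difference was not called (1.06 ± 0.39, edgeR adjusted p = 0.0673). Cdkn2b there was lower, at 0.304 to 0.716 CPM without haemoglobin transcripts beside 0.817 to 2.55 in aged controls, without overlap. No Cdkn2b difference with rapamycin was called in any of 7 tissues (smallest edgeR adjusted p = 0.0592).

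The pathway around the members was followed with 7 gene lists. In LT with age, secreted factors tied to senescence had 51 of 276 gene and tissue pairs higher and 5 lower, with a median log2 fold change of 0.30, where 7.01% of all pairs rose and 6.56% fell and the median of all genes lay between −0.03 and 0.00 in each tissue. The chemokine gene Ccl8 rose in 7 of the 8 tissues that tested it (1.97 to 3.44), Ccl5 in 5 of 9 (1.53 to 2.60) and the osteopontin gene Spp1 in 5 of 12 (0.82 to 3.42). Of p53 regulators and targets, 38 of 305 pairs rose and 12 fell (median 0.08), among them the apoptosis gene Pmaip1 in 5 of 11 tissues (0.46 to 1.23, with a fall of −1.91 in colon) and the receptor gene Eda2r in 3 of 11 (1.07 to 1.52). For the integrated stress response, 24 of 145 pairs rose and 9 fell (median 0.10), with the glutathione-degrading enzyme gene Chac1 up in 4 of 12 tissues (0.46 to 2.85) and the asparagine synthetase gene Asns in 3 of 12 (0.53 to 1.45). Both fell in adipose tissue (−1.11 and −1.02).

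The remaining lists concern the cell cycle and the nuclear envelope. D and E cyclins and their kinases had 3 of 96 pairs higher and 14 lower with age in LT (median −0.12), including Cdk2 lower in 5 of 12 tissues (−0.29 to −0.53). Proliferation genes had 20 of 283 pairs higher and 11 lower (median −0.03): in white blood cells 12 of 25 rose and none fell, where 15.7% of all genes rose, and in frontal cortex 5 of 23 fell and none rose, where 2.8% of all genes fell. The DNA topoisomerase gene Top2a fell in frontal cortex, hippocampus and hypothalamus (−1.02 to −1.83) and the proliferation marker Mki67 in frontal cortex (−1.0), and both rose in white blood cells (1.86 and 1.59). The other CDK inhibitors and pocket proteins had 6 of 72 higher and 7 lower, and nuclear lamina and envelope genes 5 of 120 higher and 7 lower (median 0.01).

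With exenatide in LT, 5 of 12 integrated stress response genes tested in colon fell and none rose (median −0.44 beside −0.04 over all genes there), where 6.98% of all colon genes fell and 5.11% rose. Chac1 fell in colon (−2.37) and hypothalamus (−0.55) and rose in adipose tissue (1.57), and the transcription factor gene Atf4 fell by 1.05 in colon and rose by 0.58 in adipose tissue. In kidney, 8 of 24 secreted factors rose and none fell (median 0.44 beside 0.02 over all genes), where 8.25% of all kidney genes rose and 5.97% fell. Igfbp3 and Igfbp7, binding proteins of insulin-like growth factors, each rose in kidney (0.97 and 0.49) and adipose tissue (1.40 and 0.91), and Igfbp7 fell in colon (−0.55).

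With age in ST, secreted factors had 20 of 159 pairs higher and 1 lower (median 0.25), where 6.82% of all pairs rose and 6.74% fell. The metalloproteinase genes Mmp12 (1.86 and 3.85) and Mmp3 (1.88 and 3.30) rose in heart and hippocampus. Nuclear lamina and envelope genes had 10 of 70 pairs higher and 5 lower with rapamycin (median 0.06), where 6.72% rose and 6.5% fell. The lamin A gene Lmna rose in frontal cortex and hippocampus with rapamycin (0.38 and 0.31), as did Banf1, which binds DNA to the envelope (0.41 and 0.54). Banf1 fell there with age (−0.41 and −0.56), measured against the same aged controls. Genes of the p53 list went both ways with rapamycin. Ccng1 (−0.26 to −0.66) and Trp53inp1 (−0.39 to −0.56) each fell in frontal cortex, heart and hippocampus. Aen rose in 3 of 7 tissues, namely frontal cortex, hippocampus and skeletal muscle (0.31 to 0.55).

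Over the 36 LT groups of tissue and condition, each member's profile was compared with those of 13646 genes by Pearson correlation of mean log2 CPM. The genes most like Cdkn2a were Siglec1 (0.82), Cfp (0.82) and Timd4 (0.80), and those most like Cdkn1a were Mall (0.91), Slc2a10 and Pmp22. Cdkn2b was most like Nupr1 (0.94), Gprc5a and Plcb3, Cdkn2c most like Lgals1 (0.91), Ifi205 and Tmem134, and Gdf15 most like Zmynd15 (0.90), Cxcl16 and Lpcat3. Lmnb1 was most like B3gnt5 (0.96), Chfr and Arhgap11a, and Trp53 most like Mta2 (0.99), Isg20l2 and Ttf1. Groups of a tissue share much of their expression, so these values describe mainly differences between tissues. Among the members themselves, Lmnb1 and Trp53 were the closest pair (0.92) and Lmnb1 and Gdf15 the most distant (0.08).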

How the data were processed

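RNA was sequenced after poly(A) selection with an NEBNext Ultra II kit, per the labels' protocols, a kind that does not mark strand. The LT table as deposited holds whole read counts per gene. The ST and YA tables hold estimated counts as deposited, of which 7.37% and 7.21% of non-zero values were not whole, and they were rounded here. The submitters' processing notes name FastQC 0.11.9 and the build GRCm39; the aligner, counter and annotation are not given in the sources used here. Columns were matched to animals by sample title, except 2 LT liver columns of 1 group, matched by description because the labels disagree. The labels also disagree on the tissue of 1 LT colon library, which was used as colon.

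Each tissue of each cohort was fitted on its own with edgeR 4.0.16 in R 4.3.3 (TMM scaling, filterByExpr by group, robust quasi-likelihood, all groups of the cohort, and a batch term in LT tissues of 2 batches). P-values were adjusted by Benjamini and Hochberg over all genes of a tissue and contrast and called at 0.05. SE is the log2 fold change divided by the root of the F statistic. The 9 contrasts, DESeq2 1.42.0 and 7 further kinds of alternative were run, and the fits were tested on simulated data. Named genes of the pathway lists are up to 4 per list and contrast, those called in the most tissues in 1 direction, and some of them are given. The members and lists were chosen with earlier results of these data known.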

Additional observations from a re-analysis of the deposited data

Results flagged for a closer look

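Among 152 groups of 4 to 9 animals for the called genes and tissues, 21 held 1 animal far from the rest in CPM by Dixon's gap test. That test flags about 1 in 20 groups by chance if the values are independent and normally distributed. CPM need not be so distributed, and the groups share animals and come from called pairs, so the 21 cannot be read against that rate. Exenatide animal B36 accounts for 6 of them: Cdkn1a in heart (137 CPM), kidney (36.4), liver (38.9), lung (140) and frontal cortex (40.5), and Gdf15 in adipose tissue (42.1). Other exenatide animals apart from their LT group were B40 for hypothalamus Cdkn1a (34.9 CPM), B26 for frontal cortex Cdkn2c (3.22) and 1 of B13 and B14 for liver Cdkn2c (12.2); the labels of their 2 liver libraries disagree on which animal is which, and both are in the same group and batch.

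Among LT aged controls, B15 stood apart for Cdkn2c in white blood cells (15.9 CPM, others 7.04 to 9.61) and for liver Cdkn2a (1.99, others 0.235 to 0.993), and B39 for liver Cdkn1a (12.3, others 2.02 to 6.79). B24 stood apart for colon Cdkn2b (82.1, others 21.9 to 42) and B16 for frontal cortex Cdkn2c (3.21, others 1.61 to 2.25). Among LT young controls, A53 was high for adipose Gdf15 (3.24, others 0.187 to 1.43) and heart Cdkn1a (29.4, others 7.35 to 17.6), A51 for heart Gdf15 (3.46, others 0.263 to 1.55), and A52 for colon Cdkn2b (78.9) and frontal cortex Cdkn2c (4.22, others 2.5 to 3.29). In ST, E9 of the knockdown controls was low for white blood cell Lmnb1 (16.6, others 39.2 to 48.2), in a library with 36.3% haemoglobin counts, and E28 of the rapamycin group was high for heart Cdkn2a (2.64).

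3 genes were called in opposite directions with age in different tissues of a cohort, and these differences between tissues were not tested. In LT, Cdkn2b rose in white blood cells (log2 fold change 2.29) and spleen (0.95) and fell in adipose tissue (−0.65), and Cdkn2c rose in white blood cells (0.64) and skeletal muscle (0.44) and fell in adipose tissue (−1.10), liver (−0.89) and frontal cortex (−0.50). In ST, Lmnb1 rose in white blood cells (1.09) and fell in frontal cortex (−0.37) and hippocampus (−0.52).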

How the results depend on the processing

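Of 47 called differences of the members, 12 kept their call under every alternative run for them. Among these 12, only LT spleen Cdkn2a with age came from a tissue of 2 batches, so the others faced no split by batch. Of the 47, 25 lost the call when some 1 animal was left out and 31 under some other alternative, and no called difference changed sign. LT calls with age numbered 26, with 4 in batch 3 alone and 16 in the other batches alone. Liver was sequenced only in batch 3 and white blood cells only in batch 1, so each enters just 1 of these counts, with its main fit unchanged. Liver brings 2 higher and 1 lower call to the first count, and white blood cells 3 higher and 1 lower to the second. In the other tissues each batch holds fewer animals. LT exenatide calls numbered 6, with 1 in batch 3 alone, 1 in the other batches alone and 3 with no low count filter. For ST exenatide, 1 pair was called with only the compared groups in the fit, against 0. For ST rapamycin, DESeq2 called 6 against 3. For the knockdown, 0 were called with no filter and 0 with only the compared groups in the fit, against 2. The cause was not tested where the number of animals was the same.

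Leaving out 1 animal at a time gave 17 to 28 calls for LT age, 3 to 7 for LT exenatide, 6 to 10 for ST age, 0 to 1 for ST exenatide, 2 to 8 for ST rapamycin, 0 to 2 for the knockdown, 0 to 1 for exenatide within the knockdown, 0 to 0 for the difference between the exenatide effects and 1 to 1 for YA exenatide. No paired analysis was possible because each animal belonged to 1 condition. Depth limits Cdkn2a and Gdf15, which had few counts or none in many libraries.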
